A study of Mus musculus with 6 samples.

Results

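The 67 genes described here are the replication-dependent core and linker histone genes of the mouse histone clusters. They are the protein-coding rows of the table whose names begin with Hist1h, Hist2h, Hist3h or Hist4h, 67 of 48897 genes, and 2 rows of that naming annotated as pseudogenes were left out. By class there were 6 H1 genes, 18 H2A, 18 H2B, 12 H3 and 13 H4. By cluster, 54 lay in cluster 1 on chromosome 13, 10 in cluster 2 on chromosome 3, 2 in cluster 3 on chromosome 11 and 1 in cluster 4 on chromosome 6. The cells were mouse embryonic fibroblasts, primary connective tissue cells, of strain C57BL/6 at passages 5 to 7. Of the 6 RNA-seq libraries, 2 came from cells given phosphate-buffered saline (control). Another 2 came from cells given the inflammatory cytokine TNF-α with cycloheximide, a blocker of translation (TC), and 2 from cells given both of these with z-VAD-fmk, a caspase inhibitor (TCZ). The study concerned apoptosis and necroptosis, and no group received TNF-α or cycloheximide alone, so their contributions to any value below cannot be told apart. Nothing in the labels says that a group's libraries are from different cultures, and a p-value here measures only how far those libraries spread, which may be technical.

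Core histones H2A, H2B, H3 and H4 form the protein spool of the nucleosome, and H1 binds the linker DNA between nucleosomes. The clustered genes have no introns in their classical form, are transcribed mainly in S phase under the coactivator NPAT, and give mRNAs that end in a conserved stem-loop in place of a poly(A) tail. The stem-loop binding protein (SLBP) and the U7 snRNP direct that 3′ cleavage, and the mRNAs are degraded when DNA synthesis stops, a decay that is coupled to translation. Longer, polyadenylated transcripts of some of these genes are also known, and the libraries used here were made from RNA selected on oligo(dT) beads, so the levels below are those of histone RNA that passed that selection.

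The stem-loop was found in the annotated transcripts (GENCODE vM21, GRCm38) on the transcript strand after the stop codon, as a word of 16 bases that opens with GG, has CTT from base 5 and AG from base 11, and closes with CC, the other bases being free. It was present in 46 of the 67 members, against 2.03% (417 of 20591) of other protein-coding genes with such a word anywhere in a transcript. The annotated transcripts of the other 21 members stopped at the stop codon or did not hold these letters past it. That of Hist1h2ai, for one, ended 45 bases before the end of its deposited gene model. The search therefore does not show that these 21 genes lack a stem-loop. The 6 stem-loops printed here are those of the members with the highest levels or the largest changes that carry one. They are read on the transcript strand with 5 flanking bases on each side (3 after Hist1h4m, where its transcript ends), and capitals mark the 16 bases of the stem-loop.
Hist1h1c (chr13:23739512-23739527, plus strand): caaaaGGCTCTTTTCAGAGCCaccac
Hist1h2bj (chr13:22043638-22043653, plus strand): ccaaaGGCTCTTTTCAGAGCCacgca
Hist1h3d (chr13:23576244-23576259, plus strand): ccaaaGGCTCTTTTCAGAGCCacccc
Hist3h2ba (chr11:58949349-58949364, plus strand): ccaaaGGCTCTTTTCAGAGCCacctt
Hist1h4m (chr13:21812129-21812144, plus strand): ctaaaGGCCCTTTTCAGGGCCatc
Hist1h4i (chr13:22040966-22040981, minus strand): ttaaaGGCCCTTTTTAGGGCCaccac
The stem differed by class. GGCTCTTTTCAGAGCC was the form of 26 members (3 H1, 10 H2A, 8 H2B and 5 H3) and of no H4 gene, whereas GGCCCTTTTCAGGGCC was found in 7 members, all of them H4. The word began 21 to 58 bases (median 31) after the stop codon, and 44 of the deposited gene models ended 4 to 8 bases (median 5) past it. The deposited counts of those 44 genes therefore cover sequence up to the stem-loop and leave out sequence further downstream. Transcripts that end at the stem-loop and longer ones share the counted part, so the counts do not tell these forms apart. In the annotation, 23 of the 46 had more than 100 transcribed bases past the stem-loop, the longest among the genes named below being Hist1h1d (4884 bases), Hist4h4 (2445) and Hist1h2ac (2010). The most abundant H2B gene, Hist1h2bc, had no match to the word in its annotated transcript.

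The libraries held 24922627 to 52909926 counts. Control 2 and TCZ 2 were the shallowest and stood apart in small RNAs: the U1 gene Rnu1a1 had 3 and 1 counts in them against 165 to 274 in the other 4 libraries. Results that rest on them are therefore also given without both. All 12 fibroblast markers examined exceeded 1 RPKM (reads per kilobase of gene and 1e+06 counted reads) in every library, and their summed level was 8527 to 8575 RPKM in control, 6997 to 7065 in TC and 7301 to 7576 in TCZ. The summed markers of other cell types were lower than these and differed between groups. The 6 leukocyte markers summed to 1.252 to 1.45 RPKM in control, 1.885 to 2.343 in TC and 3.412 to 3.978 in TCZ. The 4 endothelial markers summed to 2.381 to 2.714, 24.96 to 26.26 and 10.4 to 10.88 RPKM, and the 5 epithelial markers to 13.19 to 14.22, 51.54 to 56.36 and 9.016 to 11.19. Most of the TC sums came from Kdr (25.82 and 24.65 RPKM), Krt19 (48.01 and 43.99) and Krt18 (7.321 and 6.7), while Pecam1, Cdh5, Tek, Epcam, Cdh1 and Krt8 stayed under 1 RPKM in TC. In TCZ Pecam1 had 2.564 and 2.68 RPKM, against 0.005524 and 0.0383 in control. The fibroblast marker Pdgfra had 14.72 and 14.19 RPKM in control and 2.06 and 1.857 in TCZ. By the test described below, 2 of the 12 fibroblast markers were higher and 8 lower in TC than in control. In TCZ 1 was higher and 3 were lower than in control. Of all genes tested 31.5% were higher in each comparison, and 29.1% were lower in TC and 28.6% in TCZ. The part of other cells in the histone values was not tested.

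Summed histone RNA was more than 10-fold higher in both treated groups than in control. Levels are counts per 1e+06 counted reads (CPM) after TMM scaling unless RPKM is named. The members summed to 76.75 and 68.08 CPM in the 2 control libraries, 1057 and 1055 in TC, and 1406 and 1252 in TCZ. Every treated library lay far above both controls, and both TCZ libraries lay above both TC libraries. In means this was 72.41 ± 6.13 CPM (SD, n = 2) in control, 1056 ± 1.18 in TC and 1329 ± 109 in TCZ, which is 14.6-fold and 18.4-fold above control and 1.26-fold from TC to TCZ. TC and TCZ were compared with the same 2 control libraries. In bulk RNA a change in the share of cells that express these genes and a change of RNA per cell cannot be told apart.

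Of the 67 members, 59 had enough counts to be tested. With edgeR's quasi-likelihood test and Benjamini-Hochberg adjustment over all 18563 genes tested, 58 of the 59 rose in TC and none fell, where 31.5% of all tested genes rose, 29.1% fell and 17.6% rose at least 2-fold. In TCZ against control 57 rose and none fell, with 31.5% of all genes higher, 28.6% lower and 18.3% at least 2-fold higher. In CPM the 2 control libraries lay below both treated libraries of either group for all 59, by the least for Hist1h3h (0.2474 in control 1 and 0.2482 in TCZ 2). The share of all genes tested that separated in this way was not computed, so this is a description only. The median log2 fold change of the 59 was 4.51 in TC and 4.80 in TCZ, or 4.31 and 4.60 with the 6 tested members that had no control count set at the bound that 3 counts over the group allow. Over all genes tested the medians were 0.02 and 0.05. Many of the 59 passed the filter with the help of their treated libraries: of 42 that did not reach its level of 0.208 CPM in both control libraries, 30 reached it in neither and 12 in 1. For these the filter selects for a rise, and their calls are given only as a description. The other 17 reached it in both control libraries, and all of these rose in both comparisons, with median log2 changes of 3.79 and 4.08. Without control 2 and TCZ 2 the counts were 55 and 54. The calls lost were Hist1h2af and Hist1h2bl in both comparisons, Hist1h3f in TC and Hist3h2a in TCZ.

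**Figure D1:**
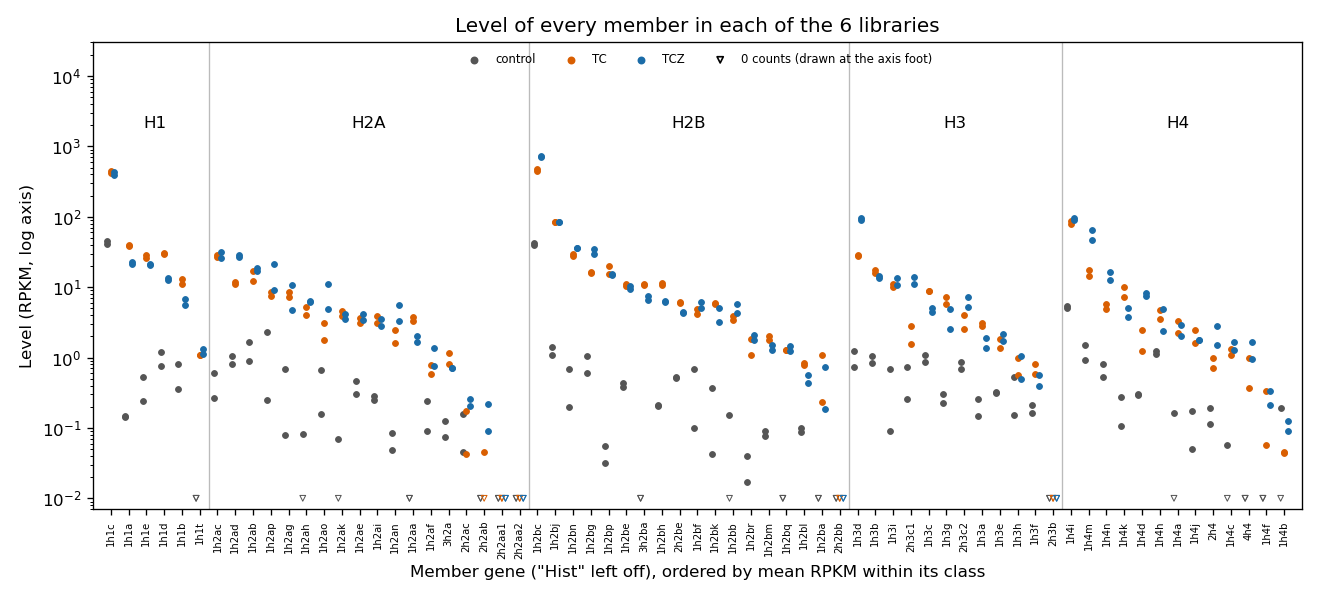
RPKM of each of the 67 members (log axis) in the 6 libraries, ordered within each histone class by mean level. Each dot is 1 library (grey control, orange TC, blue TCZ) and open triangles at the foot mark 0 counts. Among the tested members the control dots lie below the treated dots except for Hist1h3h, where control 1 (0.5287) lies above TCZ 2 (0.4933) on this scale, and Hist1h1c and Hist1h2bc lie above all others of their classes.

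The control pool was dominated by 2 genes. Hist1h1c, a linker histone, and Hist1h2bc, an H2B gene, made up 80.2% of the members' CPM in control, 65.2% in TC and 67.9% in TCZ. The remaining 65 members together had larger ratios than this pair. They went from 14.18 and 14.5 CPM in control to 362.1 and 374.1 in TC and 456.1 and 398.5 in TCZ. That is 25.7-fold and 29.8-fold, against 11.9-fold and 15.5-fold for Hist1h1c with Hist1h2bc. The sums do not depend on the low-count filter.

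**Figure D2:**
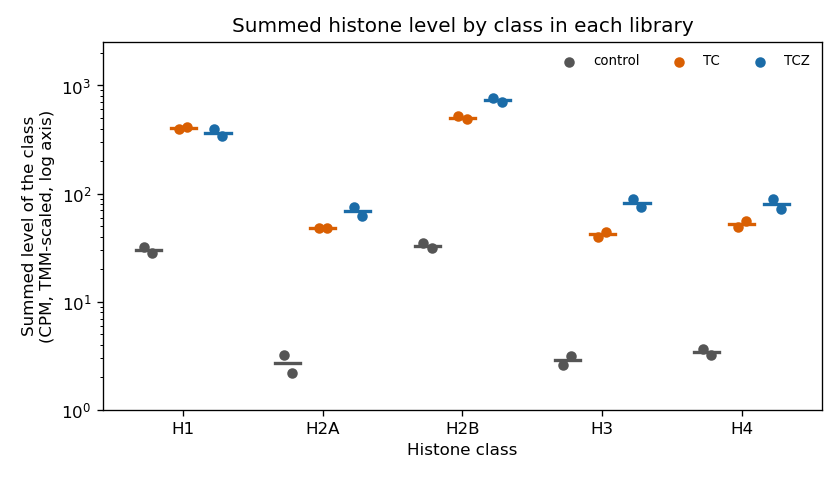
Summed level of each histone class in TMM-scaled CPM (log axis) for each library, with a bar at the mean of the 2 libraries of a group. All classes are over 10-fold higher in TC and TCZ than in control, and H1 is the class whose TCZ mean (366.8) lies below its TC mean (407.9).

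The linker histone genes rose in both treated groups, all 6 of 6 in each comparison. Of these, Hist1h1b, Hist1h1c and Hist1h1d reached the filter level in both control libraries. For the others the filter selects for a rise, and their calls are a description only. Hist1h1c, the most abundant H1 gene, had 31.04 and 26.54 CPM in control, 313.7 and 331 under TC, and 339.3 and 290.5 under TCZ. Both treated groups were well above control, and the ranges of TC and TCZ overlapped. Its log2 fold change was 3.48 ± 0.09 (SE) in TC (edgeR adjusted p = 3.63e-18) and 3.45 ± 0.09 in TCZ (edgeR adjusted p = 3.22e-18), and the difference between TCZ and TC was -0.03 ± 0.08 (edgeR adjusted p = 0.759). Hist1h1a, which encodes H1.1, went from 0.1031 and 0.09954 CPM in control to 28.82 and 29.82 in TC and 18.43 and 16.55 in TCZ. It showed the largest H1 rise over a nonzero control, 8.13 ± 0.20 on the log2 scale in TC (edgeR adjusted p = 9.26e-19) and 7.39 ± 0.21 in TCZ (edgeR adjusted p = 7.84e-18). Only 8 counts over the 2 control libraries stand behind that fold. Hist1h1t, the testis-specific linker histone, had no count in control and 39 and 41 counts in TC and 43 and 24 in TCZ. Against 3 counts over the control group it was at least 21.3-fold higher in TC (edgeR adjusted p = 4.08e-06) and at least 24.2-fold higher in TCZ (edgeR adjusted p = 2.99e-06).

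H2A genes gave 14 tested members of 18, and all 14 rose in both comparisons. Only Hist1h2ab and Hist1h2ad reached the filter level in both control libraries, so the calls of the others are a description only. Summed over the class, the level was 3.195 and 2.223 CPM in control, 48.14 and 48.34 under TC, and 75.77 and 62.76 under TCZ, 17.8-fold and 25.6-fold above control. Hist1h2ac was counted 6 and 8 times in the control libraries, 654 and 705 times under TC, and 802 and 319 times under TCZ, or 0.1237 and 0.2654, 13.47 and 14.19, and 16.54 and 13.2 CPM. The groups did not overlap except for TC and TCZ, and its log2 change was 6.25 ± 0.24 in TC (edgeR adjusted p = 1.27e-15) and 6.37 ± 0.24 in TCZ (edgeR adjusted p = 8.14e-16). Hist1h2ad followed another course, with 0.4123 and 0.4977 CPM in control, 5.995 and 6.439 under TC and 16.52 and 14.56 under TCZ. It rose by 3.79 ± 0.21 in TC and by 5.12 ± 0.20 in TCZ on the log2 scale (edgeR adjusted p = 7.46e-13 and 1.5e-15). Hist1h2aa, a testis H2A variant gene, was not counted in control, and exceeded 3 counts over that group at least 42.7-fold in TC and at least 24.2-fold in TCZ (edgeR adjusted p = 6.86e-08 and 1.07e-06).

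Among the H2B genes 17 of 18 were tested and all 17 rose in both comparisons. Only Hist1h2bc, Hist1h2be, Hist1h2bg, Hist1h2bj and Hist2h2be reached the filter level in both control libraries. The calls of the others are a description only. The TCZ call of Hist1h2bl is not stable: with 2 and 1 counts in the controls and 10 and 6 under TCZ (edgeR adjusted p = 0.0422), it was lost in every alternative fit except that with RLE size factors. Hist1h2bc was the most abundant, at 31.52 and 27.04 CPM in control, 381.4 and 350.4 under TC, and 611 and 563.4 under TCZ. The 3 groups were fully separated in that order. Its log2 change was 3.64 ± 0.09 in TC and 4.32 ± 0.09 in TCZ (edgeR adjusted p = 9.26e-19 and 4.4e-20). Hist1h2bj was nearly level between the treated groups, at 0.4535 and 0.5309 CPM in control, 36.77 and 37.45 under TC and 38.95 and 37.44 under TCZ. It rose by 6.25 ± 0.14 and 6.30 ± 0.14 on the log2 scale (edgeR adjusted p = 2.11e-19 and 1.14e-19). With the counts of a group pooled over its scaled library sizes this was 76.8-fold and 79.6-fold. Hist3h2ba of cluster 3 had no count in control against 255 and 252 in TC and 185 and 75 in TCZ. It was at least 135-fold higher in TC and at least 93.8-fold higher in TCZ (edgeR adjusted p = 3.75e-12 and 2.68e-11), the highest lower bounds of the 6 tested members without a control count. Hist1h2bp had 1 count in each control library and 675 and 533 in TC, a ratio of 484 with an exact 95% interval of 134 to 3998 that covers counting error only.

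The 12 H3 genes summed to 2.597 and 3.185 CPM in control, 39.9 and 44.27 under TC, and 89.59 and 75.38 under TCZ, which is 14.6-fold and 28.5-fold above control. Of the 5 classes H3 had the highest mean ratio of TCZ to control, but against control 2 alone it was 25.9 beside 31.2 for H2A. Of 11 tested, 10 rose in TC and 9 in TCZ. Only Hist1h3b, Hist1h3c, Hist1h3d and Hist2h3c2 reached the filter level in both control libraries, so the calls of the others are a description only. Hist1h3d carried the most RPKM of the class, with 0.3504 and 0.564 CPM in control, 14.26 and 14.65 under TC and 52.23 and 46.46 under TCZ. It rose by 5.05 ± 0.17 in TC and by 6.82 ± 0.16 in TCZ on the log2 scale (edgeR adjusted p = 1.88e-16 and 2.22e-19). Hist1h3b rose by 4.31 ± 0.23 and 4.08 ± 0.24, and Hist1h3i by 5.16 ± 0.38 and 5.45 ± 0.38, on the same scale. The members that missed the threshold were both H3 genes with few reads. Hist1h3h was counted 12 and 2 times in the controls, 24 and 14 times under TC and 27 and 6 times under TCZ, with log2 changes of 1.19 ± 0.77 and 1.31 ± 0.78 (edgeR adjusted p = 0.19 and 0.158). Of its 50-base words 93.9% are shared with other annotated genes, mostly Hist1h3i, so how its reads were assigned is uncertain. Hist1h3f was counted 9 and 4 times in the controls, 36 and 27 times under TC and 27 and 9 times under TCZ, with log2 changes of 1.96 ± 0.66 in TC (edgeR adjusted p = 0.0136) and 1.53 ± 0.68 in TCZ (edgeR adjusted p = 0.0579). The TC call was lost without control 2, without TC 1 and without control 2 and TCZ 2, at log2 changes of 1.72 to 1.77.

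Of the 13 H4 genes 11 were tested and all 11 rose in both comparisons. Only Hist1h4h, Hist1h4i and Hist1h4m reached the filter level in both control libraries, so the calls of the others are a description only. The class summed to 3.669 and 3.251 CPM in control, 49.32 and 56.08 under TC, and 88.49 and 72.4 under TCZ, 15.2-fold and 23.2-fold above control. Hist1h4i led the class, at 2.082 and 1.825 CPM in control, 32.77 and 36.24 under TC and 42.27 and 37.11 under TCZ. Its log2 change was 4.12 ± 0.12 in TC and 4.33 ± 0.12 in TCZ (edgeR adjusted p = 1.94e-17 and 6.88e-18). Hist1h4m had 0.5772 and 0.3318 CPM in control, 5.953 and 7.365 under TC and 28.7 and 19.82 under TCZ. It rose by 3.79 ± 0.25 and by 5.66 ± 0.23 on the log2 scale (edgeR adjusted p = 1.79e-11 and 3.36e-15). Hist4h4, the only gene of cluster 4, had no control count, 8 and 22 counts in TC and 22 and 18 in TCZ, and was at least 8.01-fold and at least 14.4-fold higher (edgeR adjusted p = 0.00119 and 0.000204).

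Members of all 4 clusters rose after both treatments. Outside cluster 1 only Hist2h2be and Hist2h3c2 of cluster 2 reached the filter level in both control libraries. The other calls in clusters 2, 3 and 4 are a description only. Cluster 1 lies in 3 blocks on mm10: 18 members at chr13:21715713-21837530, 5 at chr13:22035122-22043658 and 31 at chr13:23531044-23934913, called proximal, middle and distal here. Their summed CPM was 25.5, 29.6 and 13.6 times the control level in TC, and 35.3, 32 and 17.2 times in TCZ. The distal block holds Hist1h1c and Hist1h2bc. Cluster 2 had the smallest ratios of the 3 clusters with control counts, from 1.979 and 2.322 CPM in control to 19.36 and 21.43 in TC (9.48-fold) and 28.78 and 24.16 in TCZ (12.3-fold). Its most counted gene, the H2B gene Hist2h2be, had 1.319 and 1.261 CPM in control, 16.13 and 16.54 under TC and 12.91 and 11.75 under TCZ, with log2 changes of 3.65 ± 0.15 and 3.25 ± 0.15 (edgeR adjusted p = 2.99e-15 and 3.23e-14). The H3 gene Hist2h3c2 rose by 2.23 ± 0.35 and 3.23 ± 0.35, and its near copy Hist2h3c1 by 2.44 ± 0.41 and 5.01 ± 0.36, on the log2 scale. The H4 gene Hist2h4 had 2 counts in each control library, 19 and 14 in TC and 31 and 27 in TCZ, and rose by 2.64 ± 0.86 (edgeR adjusted p = 0.0112) and 3.99 ± 0.83 (edgeR adjusted p = 0.000262). Without control 1 the TC call of Hist2h4 was lost, at 2.29. Hist3h2a of cluster 3 was counted 3 and 1 times in the controls, 29 and 21 times under TC and 19 and 9 times under TCZ, with log2 changes of 3.27 ± 0.85 and 2.86 ± 0.88 (edgeR adjusted p = 0.00216 and 0.00798).

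The 8 members that were not tested lay at or near 0. Hist2h2aa1, Hist2h2aa2, Hist2h2bb and Hist2h3b had no count in any library. Of the 50-base words of these 4, 89.2%, 100%, 0% and 79.7% are shared with other annotated genes, so reads from Hist2h2aa1, Hist2h2aa2 and Hist2h3b may have had no single place to be counted. Hist2h2ac (1 to 5 counts a library), Hist2h2ab (0 to 5), Hist1h4b (0 to 4) and Hist1h4f (0 to 6) were under the filter in every group, and no fold is given for them.

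With z-VAD-fmk added to TNF-α and cycloheximide, members were called in both directions, in each less often than all genes tested. In TCZ against TC, 13 of the 59 were higher, 9 lower and 37 did not pass, where 28.2% of all genes tested were higher and 27.9% lower, and 11.6% were at least 2-fold higher. The median log2 change of the 59 was 0.12, beside 0.02 over all genes. Without control 2 and TCZ 2, 20 members passed. Of these 19 were also among the 22 above, the calls lost being Hist1h1e, Hist1h2an and Hist3h2ba and the one gained Hist1h4i. With 1 library left out, 21 members passed without TC 1, 20 without TC 2, 19 without TCZ 1, 21 without TCZ 2 and 22 without either control library. The calls lost were Hist1h1e, Hist1h2bn, Hist2h3c2 and Hist3h2ba without TC 1, Hist1h2an, Hist1h4k and Hist3h2ba without TC 2, Hist1h2ap, Hist1h2bn, Hist1h4k and Hist2h3c2 without TCZ 1, and Hist1h1e, Hist1h2an and Hist3h2ba without TCZ 2.

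The calls of TCZ against TC by class are given as a description, where 28.2% of all genes tested were higher and 27.9% lower. Of the 6 H1 genes none was higher and 4 were lower, of 14 H2A genes 4 were higher and none lower, of 17 H2B genes 3 were higher and 3 lower, of 11 H3 genes 3 and 1, and of 11 H4 genes 3 and 1. The counts of higher H2A, H3 and H4 genes lay near the share of all genes tested. No test of the difference between classes was made. The lower H1 genes were Hist1h1d (-1.14 ± 0.11 on the log2 scale, edgeR adjusted p = 1.65e-08), Hist1h1b (-0.86 ± 0.18, edgeR adjusted p = 0.000401), Hist1h1a (-0.74 ± 0.10, edgeR adjusted p = 1.15e-06) and Hist1h1e (-0.33 ± 0.11, edgeR adjusted p = 0.016). Hist1h1d, for one, had 23.2 and 24.55 CPM in TC and 10.85 and 10.8 in TCZ, still above its 0.5566 and 0.8295 in control. In summed CPM the TCZ to TC ratio was 0.899 for H1, 1.44 for H2A, 1.45 for H2B, 1.96 for H3 and 1.53 for H4. For H1 the ranges overlapped (398.6 and 417.3 CPM in TC, 393.4 and 340.2 in TCZ). As a share of the members' summed RPKM, a scale per length, H1 made up 40.4% in control, 35.8% in TC and 25.2% in TCZ, and H2B 40.8%, 44.1% and 49.7%. H3 went from 5.3% to 5.41% and 8.01%, H4 from 8.3% to 8.41% and 10.1%, and H2A from 5.25% to 6.27% and 6.94%.

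The 3 members with the largest difference between TCZ and TC were an H3 and 2 H4 genes, all higher in TCZ. Hist2h3c1 had 1.051 and 1.932 CPM in TC and 9.938 and 7.612 in TCZ, a log2 difference of 2.56 ± 0.27 (edgeR adjusted p = 6.47e-08). Hist1h4d had 0.927 and 0.4628 CPM in TC and 3.278 and 2.855 in TCZ, a difference of 2.14 ± 0.39 (edgeR adjusted p = 6.81e-05). Hist1h4m differed by 1.88 ± 0.16 (edgeR adjusted p = 1.16e-09). The groups did not overlap for any of them. Hist1h3d (1.77 ± 0.10, edgeR adjusted p = 1.27e-12), Hist1h2ad (1.33 ± 0.14) and Hist1h2bc (0.68 ± 0.08) were also higher in TCZ. Hist2h3c2 was 2.1-fold higher (edgeR adjusted p = 0.00468), a call lost without TC 1 and without TCZ 1, at log2 differences of 0.71 and 0.69. Outside H1, the lower members were the H2B genes Hist1h2bh (-0.78 ± 0.20), Hist2h2be (-0.40 ± 0.11) and Hist3h2ba (-0.56 ± 0.22, edgeR adjusted p = 0.0382), the H3 gene Hist1h3c (-0.81 ± 0.25) and the H4 gene Hist1h4k (-0.96 ± 0.30).

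Of the 11 cluster 1 members higher in TCZ than in TC, 8 lay in 2 runs of neighbours, a grouping noticed after the values were seen and given here as a description. In the proximal block, Hist1h2ao (1.73 ± 0.39), Hist1h4m, Hist1h4n (2.94-fold, edgeR adjusted p = 3.35e-05) and Hist1h2ap (1.01 ± 0.34) are 4 consecutive members. In the distal block, Hist1h2bg (1.06 ± 0.14), Hist1h2bf, Hist1h2ad, Hist1h3d and Hist1h4d are 5 consecutive members, of which Hist1h2bf alone did not pass (0.37 ± 0.35). The other 3, Hist1h2an (1.17 ± 0.42, edgeR adjusted p = 0.0225), Hist1h2bn (0.38 ± 0.12, edgeR adjusted p = 0.0121) and Hist1h2bc, had no higher member beside them. None of the 5 members of the middle block passed. The nearest to passing was Hist1h4i (0.21 ± 0.09, edgeR adjusted p = 0.0538). It passed under several alternatives, among them limma-voom (0.22), RLE size factors (0.22) and the 50-count filter (0.24). Neighbours also moved apart: Hist1h1d, the member 2 places before Hist1h2ae, was lower in TCZ, and Hist1h2be and Hist1h1e, the next members after Hist1h4d, were at -0.06 ± 0.09 and -0.33 ± 0.11. Copies of a histone class share sequence. Hist1h2ao, Hist1h2ap, Hist1h4m and Hist1h4n share 93.5%, 100%, 89.8% and 91.8% of their 50-base words with other genes, and the closest copy of each lies among these 4. Hist1h4d shares 30.2%. Of the 36 members that share over 50% of their words, 32 were tested in TCZ against TC, with 11 higher and 2 lower. Of the 31 that share less, 27 were tested, with 2 higher (Hist1h2bc and Hist1h4d) and 7 lower. Over all genes tested 28.2% were higher and 27.9% lower. The 11 of 32 higher and the 7 of 27 lower lay near these shares, and the remaining counts lay below them. The difference between these groups of members was not tested. How reads with several placements were treated is not given in the sources used here, and its part in these counts was not tested.

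**Figure D3:**
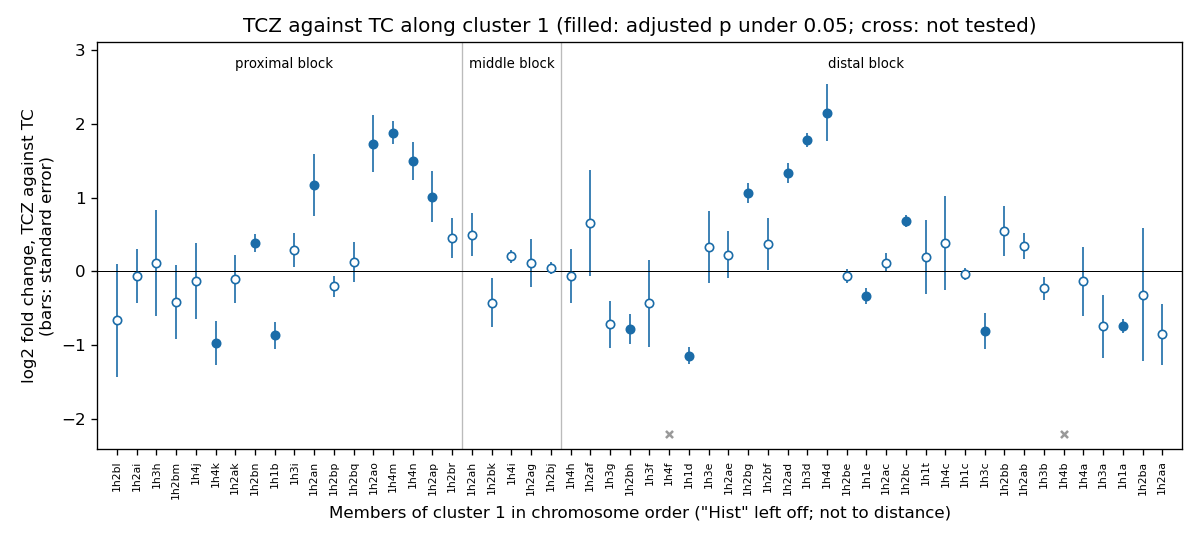
log2 fold change of TCZ against TC for the members of cluster 1 in chromosome order (evenly spaced, not to distance), with standard errors. Filled points passed an adjusted p of 0.05, open points did not, and crosses were not tested. The points from Hist1h2ao to Hist1h2ap and from Hist1h2bg to Hist1h4d lie above 0, up to 2.14, and Hist1h1d is lowest at -1.14.

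Members with and without a long annotated transcript both rose over control. The 23 members with more than 100 annotated bases past the stem-loop, all tested, had a median log2 change of 4.51 in TC and 4.88 in TCZ. Among the 23 with up to 100 bases, 18 were tested, with medians of 3.87 and 4.29. In summed CPM, which takes in every member, the first group went from 37.19 and 33.44 in control to 477.7 and 501.3 in TC, 13.9-fold, and the second from 5.586 and 4.612 to 107.2 and 107.9, 21.1-fold. In TCZ the sums were 557.5 and 485.2 (14.8-fold) and 155.3 and 128.3 (27.8-fold). The first group includes Hist1h1c. The difference between these groups was not tested, and the share of reads past the stem-loop was not analysed here.

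Promoter sequence from RefSeq on GRCm38.p6 was matched by gene identifier for 62 members, in windows of 250 bases before to 50 after the start. Shown are the 250 upstream bases of an H1, an H2B and an H4 gene that are among the highest of their classes and rose after both treatments. Capitals mark CCAAT on either strand (ATTGG where it is reversed), the TATA-box word TATAAA and the H1 word AAACACA.
Hist1h1c (chr13:23738557-23738806, plus strand): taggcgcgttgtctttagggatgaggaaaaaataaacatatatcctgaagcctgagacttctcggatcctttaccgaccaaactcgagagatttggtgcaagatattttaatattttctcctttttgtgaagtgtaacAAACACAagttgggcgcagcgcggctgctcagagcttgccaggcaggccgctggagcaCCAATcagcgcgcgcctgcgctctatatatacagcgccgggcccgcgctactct
Hist1h2bj (chr13:22042948-22043197, plus strand): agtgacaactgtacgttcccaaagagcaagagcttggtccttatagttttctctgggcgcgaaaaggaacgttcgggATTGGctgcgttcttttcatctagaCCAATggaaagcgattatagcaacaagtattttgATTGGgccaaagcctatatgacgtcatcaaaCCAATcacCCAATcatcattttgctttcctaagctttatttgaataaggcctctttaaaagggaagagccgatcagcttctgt
Hist1h4i (chr13:22041363-22041612, minus strand): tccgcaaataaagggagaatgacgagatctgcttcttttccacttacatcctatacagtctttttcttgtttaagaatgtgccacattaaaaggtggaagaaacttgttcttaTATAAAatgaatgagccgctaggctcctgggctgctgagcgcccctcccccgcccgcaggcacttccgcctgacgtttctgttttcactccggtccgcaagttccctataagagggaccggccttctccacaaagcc
CCAAT, read on both strands, was in 85.5% of the members' windows and in 37.4% of all 32851 promoter windows of the same length. It was in every matched H1, H2A, H2B and H3 window and in 3 of 12 H4 windows. In Hist1h2bj it occurs 5 times, starting 173, 148, 114, 83 and 75 bases upstream. TATAAA was in 56.5% of members against 13.6% of all windows, and in Hist1h4i it starts 137 bases upstream. The octamer ATTTGCAT was in 14 members, 7 H2A and 7 H2B, which is 22.6% against 1.7%. All these words were read on both strands. Windows of H2A and H2B genes that lie head to head overlap, so a single site can be counted for both genes. AAACACA, a word known from H1 promoters and found 112 bases upstream in Hist1h1c, was in 5 of 6 H1 windows, and in 14.5% of members against 7.2% of all windows. A match describes the letters and not a bound factor.

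H2A and H2B genes often lie head to head. There were 12 such divergent pairs with starts within 500 bases, each of an H2A with an H2B gene, and both genes were tested in 11. In TC and in TCZ against control both genes rose in all 11, where 31.5% of all genes tested rose in each. In no pair did both genes reach the filter level in both control libraries, so this is a description only. In TCZ against TC the 2 genes had the same call in 4 of 11, and in those 4 neither gene passed. In each of the other pairs a single gene was higher and its partner did not pass. Of all genes tested 28.2% were higher and 27.9% lower in that comparison. Partners were unequal in level, and the control ratios rest on few reads. Hist1h2bc stood 160-fold and 64.1-fold above its partner Hist1h2ac in RPKM in the 2 control libraries, where Hist1h2ac had 6 and 8 counts, 17.8-fold and 15.5-fold under TC, and 23.3-fold and 26.9-fold under TCZ. Hist1h2bj stood 11.7-fold and 10-fold above Hist1h2ag under TC and 7.64-fold and 17.8-fold under TCZ, and the controls, with 15 and 1 counts of Hist1h2ag, gave 1.61 and 17.6, so no change with treatment is read from this pair. Hist1h2bf lay below Hist1h2ad in all 6 libraries, at 0.124 to 0.662 of its RPKM.

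The genes known to act on clustered histone mRNA are read here against the share of all tested genes, of which 31.5% were higher and 29.1% lower in TC, 31.5% and 28.6% in TCZ, and 28.2% and 27.9% in TCZ against TC. Of 19 factors of histone mRNA transcription, processing and decay, 3 were higher and 8 lower in TC, 4 higher and 9 lower in TCZ, and 4 higher and 7 lower in TCZ against TC. Their median log2 changes were -0.02, -0.15 and -0.09, beside 0.02, 0.05 and 0.02 over all genes. Npat, the coactivator of histone transcription, had 54.59 and 49.1 CPM in control, 35.97 and 36.54 under TC and 20.68 and 23.29 under TCZ, and fell by 0.52 and 1.25 on the log2 scale (SE 0.08 and 0.09, edgeR adjusted p = 9.65e-06 and 2.95e-11). Lsm11, a U7 snRNP subunit, fell by 1.28 and 2.03 (SE 0.11 and 0.12, edgeR adjusted p = 8.9e-10 and 1.69e-12). Casp8ap2 (FLASH), which takes part in 3′ cleavage, fell by 0.70 and 0.93 (SE 0.09 and 0.10), and Srrt (ARS2) by 0.71 and 0.26 (SE 0.07 for both). Eri1, an exonuclease that acts on the stem-loop, had 43.45 and 36.96 CPM in control, 31.19 and 27.33 under TC and 32.31 and 35.87 under TCZ. It fell by 0.46 in TC (SE 0.09, edgeR adjusted p = 0.000158) and by 0.25 in TCZ (SE 0.09, edgeR adjusted p = 0.0262), the latter a call lost without control 1 (-0.13), without TCZ 1 (-0.18), with DESeq2 (-0.22) and with a filter of 50 counts in 2 libraries (-0.19). Slbp went the other way, at 32.78 and 31.02 CPM in control, 40.6 and 33.73 under TC and 84.97 and 87.67 under TCZ. Its log2 change was 1.43 ± 0.09 in TCZ (edgeR adjusted p = 2.47e-12). In TC it was 0.22 ± 0.09 (edgeR adjusted p = 0.0326), a call lost on library totals (0.08), without the low-count filter (0.24), without either control library (0.26 and 0.17), without control 2 and TCZ 2 (0.17) and without TC 1 (0.08).

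DNA replication and S phase genes are read against the same shares of all tested genes. Of 26, 5 were higher and 15 lower in TC, 10 higher and 10 lower in TCZ, and 16 higher and 2 lower in TCZ against TC, with median log2 changes of -0.37, 0.10 and 0.27. Pcna, the replication clamp, had 99.79 and 87.36 CPM in control, 73.85 and 72.52 under TC and 145.2 and 125.5 under TCZ. It fell by 0.36 in TC (SE 0.08, edgeR adjusted p = 0.000767) and rose by 0.53 ± 0.08 in TCZ (edgeR adjusted p = 8.38e-06). The cyclin genes Ccne2, Ccne1 and Ccna2 fell in TC by 0.90, 1.28 and 1.17 (SE 0.12, 0.09 and 0.07), and Ccne2 and Ccna2 fell in TCZ by 1.20 and 0.92 (SE 0.13 and 0.07). Ccne1 had 36.92 and 35.33 CPM in control and 31.67 and 30.49 in TCZ. Its lower call in TCZ was lost under several alternatives. Among them were DESeq2 (-0.19), no low-count filter (-0.23) and a filter of 50 counts in 2 libraries (-0.16). Poly(A) machinery genes gave 2 higher and 4 lower of 9 in TC and 3 higher and 2 lower in TCZ. Among them Papolg, a poly(A) polymerase, rose by 0.71 ± 0.10 in TC, and Cpsf4, a cleavage factor subunit, fell by 0.69 (SE 0.10).

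Replacement histones are made also outside S phase, mostly from polyadenylated mRNAs. Of 11 such genes, 5 were higher and 5 lower in TC, and 7 higher and 3 lower in TCZ, with median log2 changes of -0.14 and 0.34, where 31.5% of all tested genes were higher in each and 29.1% and 28.6% lower. H3f3b, which encodes H3.3, had 266.4 and 231.1 CPM in control, 1003 and 1010 under TC and 2358 and 2139 under TCZ, a rise of 2.02 ± 0.08 and 3.18 ± 0.08 (edgeR adjusted p = 2.31e-15 and 1.77e-18). H1f0, the replacement linker histone, had 59.08 and 53.68, 156.9 and 155.6, and 422.6 and 396 CPM. H1f0 was higher in TCZ than in TC by 1.39 ± 0.07 on the log2 scale (edgeR adjusted p = 8.33e-13), where 4 of the 6 clustered H1 genes were lower.

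**Figure D4:**
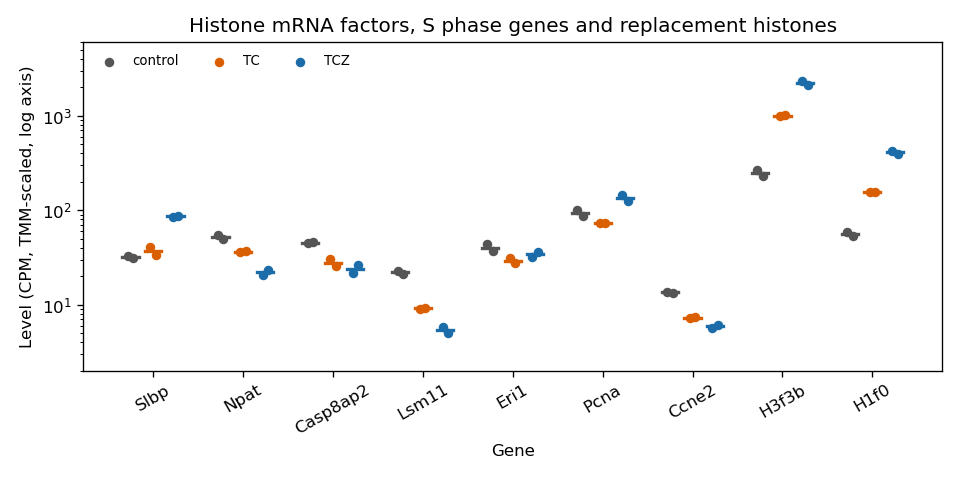
TMM-scaled CPM (log axis) of 5 factors of histone mRNA, 2 S phase genes and 2 replacement histones in each library, with a bar at each group mean. Npat and Lsm11 fall from control to TC to TCZ, Slbp is highest in TCZ, and H3f3b and H1f0 rise in both treated groups.

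Among the protein-coding genes, other than members, whose log2 CPM over the 6 libraries was most alike to the members' sum, with Pearson r of 0.99928 to 0.99985, were Rgs16, Csf1, Ell2, Gm39701, Gch1, Hivep2, Ifrd1, Baz1a and Csf2. With 6 libraries in 3 groups, r describes mainly the 3 group means, and no p is given. Rgs16, the nearest, had 130.8 and 117.4 CPM in control, 1210 and 1277 under TC and 1542 and 1399 under TCZ.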

How the data were processed

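The 6 libraries were poly(A)-selected RNA-seq from mouse embryonic fibroblasts. The authors deposited a table of raw read counts and RPKM per gene, per the file headers. The build mm10 and the tools bcl2fastq, HTSeq and HISAT2 2.1.0 are named per the submitters' processing notes. The sources used here give no annotation version, strand setting or treatment of reads with several placements. The authors' RPKM equalled counts per kilobase and 1e+06 counted reads (largest difference 5e-07).

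The counts were tested with edgeR 4.0.16 (R 4.3.3): filterByExpr by group (minimum count 10), TMM, one quasi-likelihood fit over all 6 libraries with group as the only term (3 residual degrees of freedom), and Benjamini-Hochberg adjustment over 18563 genes at 0.05. The script was tested on simulated counts. Sums of CPM or RPKM took in all members, with no test. A fold against no counts used 3 counts over the group. Coordinates are those of the deposited table or of GENCODE vM21 (both mm10/GRCm38). Alternatives used limma 3.58.1, DESeq2 1.42.0, other scalings and filters, a replicate block and left-out libraries. Members named with full values are the 2 highest by RPKM and the most changed of each class, all tested members outside cluster 1, those that missed a threshold and the 3 most changed between TCZ and TC. Members and gene lists were chosen with earlier results of these data known. Depth was 24922627 to 52909926 counts a library, and the biological coefficient of variation was 7.38%. One leukocyte marker and one of the genes nearest in pattern are not reported here by name.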

Additional observations from a re-analysis of the deposited data

How the results depend on the processing

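Under the alternatives run, from 46 members (of 46 tested, with at least 50 counts in 2 libraries) to 58 were higher in TC. In TCZ from 46 to 57 were higher, and none was lower in either. With the 50-count filter, 5046 of all 13432 genes tested were higher in TC and 4953 in TCZ. Many members passed these filters with the help of their treated libraries. For those the filter selects for a rise, and the counts are a description only. Leaving out 1 library gave 54 to 58 and 54 to 56 higher, median log2 changes of 4.25 to 4.62 and 4.43 to 5.01, and in TCZ against TC 10 to 14 higher, 7 to 9 lower and a median of 0.01 to 0.26. The TC median was 4.28 with limma-voom, 4.38 on library totals and 4.69 with the 50-count filter. The TCZ median was 4.60 on library totals and 5.11 without control 2 and TCZ 2, and the TCZ against TC median 0.04 on library totals, 0.20 with a batch term for those libraries and 0.26 without them. With a log2 change of 1 or more also required, 11 members were higher in TCZ than in TC and 1 was lower (Hist1h1d). By the same rule 11.6% of all genes tested were higher. The causes of these shifts were not tested. Library totals moved the median of all genes from 0.02 to -0.11 in TC and from 0.05 to -0.15 in TCZ, and the share of calls that were higher from 52.4% to 39.4% in TCZ. They gave summed CPM of 1034 for all members in TC, 1008 for cluster 1 in TC, 47.22 for H2A in TC, and 35.76 and 688.7 for H2B in control and TCZ.

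The replicate numbers do not pair the libraries by any label, and deviations of same-numbered libraries correlated at 0.011 (control and TC), 0.124 (control and TCZ) and -0.021 (TC and TCZ). With the replicate block 58, 56 and 24 members passed, and the TCZ against TC median was 0.04. Single genes kept direction and side of the threshold in 1672 of 1756 values, 53 lost the call, 23 gained it and 8 changed sign, all among differences of TCZ against TC that had not passed. These were Hist1h1c (leave-one-out range -0.16 to 0.08, 0.00 with the 50-count filter, 0.07 with the batch term, and 0.08 without control 2 and TCZ 2), Hist1h2ac (-0.08 without TCZ 1), Hist1h2bj (-0.01 on library totals) and Hist1h3h (-0.24 without TC 2, -0.64 without TCZ 1, and a leave-one-out range up to 0.56). The Hist3h2ba difference of TCZ against TC lost its call under 7 alternatives. With 2 libraries a group and under 10 control counts for many members, the size of their folds is poorly determined.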

Other observations

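The pseudogene row Hist3h2bb-ps, next to the cluster 3 genes, was counted 5 and 0 times in the controls, 42 and 24 times under TC and 39 and 11 times under TCZ, and rose by 3.40 ± 0.83 and 3.34 ± 0.84 on the log2 scale (edgeR adjusted p = 0.00119 and 0.00163). The pseudogene row Hist1h2al had at most 5 counts in a library and was not tested. The protein-coding genes that are no histones but lie inside the blocks of cluster 1 were looked at after the members' values were known. Of 6 tested, 3 were higher in TC, 6 in TCZ and 5 in TCZ against TC, and none was lower, where 31.5%, 31.5% and 28.2% of all tested genes were higher. Of the 6, Slc17a1, Slc17a2, Slc17a3 and Trim38 had 0 to 2 counts in each control library and entered the test through treated libraries, so their calls are a description only. LOC108168067, the member of this group inside the proximal block, had 10.49 and 8.991 CPM in control, 45.61 and 46.42 under TC and 121.9 and 94.99 under TCZ, and Hfe, an iron regulator in the distal block, had 2.762 and 1.924, 1.73 and 1.368, and 3.959 and 3.599. The solute carriers Slc17a1, Slc17a2 and Slc17a3 had 9 to 66 counts a library in TCZ.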
